A study of Homo sapiens with 20 samples.

Results

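The interferon regulatory factor (IRF) family was examined through its members *IRF1*, *IRF2*, *IRF3*, *IRF4*, *IRF5*, *IRF7*, *IRF8* and *IRF9*, chosen by symbol, which are 8 of the 58233 gene identifiers counted in every library. The libraries came from 4 human lung cancer cell lines, A549 (lung adenocarcinoma), HCC366 (adenosquamous lung carcinoma), NCI-H1650 and NCI-H196. All cells carried a lentiviral vector with Cas9 and an sgRNA, either against *GFP*, which has no target in these cells, or against *ADAR*, which encodes the RNA-editing enzyme ADAR1, and were analysed as transduced populations. HCC366, NCI-H1650 and NCI-H196, which the study classes as dependent on ADAR1, were untreated and sampled 5 days after transduction, while A549, classed as not dependent, received vehicle or 10 ng/mL interferon-β (IFN-β) for 24 h. Each of the 10 conditions had 2 libraries, one for each sgRNA (sg1 and sg2). The p-values therefore rest on the spread between libraries, in which sgRNA, culture and library preparation cannot be told apart. Neither the labels nor the files state that the libraries came from separate cultures.

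IRF proteins share a DNA-binding domain that reads GAAA repeats in the promoters of interferon and interferon-stimulated genes. IRF3 and IRF7 are held inactive in the cytoplasm until sensors of nucleic acid lead to their phosphorylation, after which they turn on type I and III interferon genes. Interferon then acts through its receptor to assemble the complex ISGF3, which holds STAT2 and IRF9 and induces interferon-stimulated genes, *IRF7* among them. *IRF1* is known as a gene induced through NF-κB and interferon signalling, and IRF2 as its antagonist at shared sites. ADAR1 edits double-stranded RNA and so limits its recognition by the cytoplasmic sensor MDA5.

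Reads on genes per library ranged from 62679 in NCI-H196 *GFP* sg2 to 19520189, with a median of 6411279. HCC366 libraries held 1116439 to 3440707 reads. Both NCI-H196 *GFP* sg2, where 1 read equals 14.7 CPM (TMM-scaled counts in 1000000 reads), and HCC366 *ADAR* sg2, where 85.6% of alignments were not unique against 22.5% to 59.1% elsewhere, stand apart, and the *ADAR* KO results of *IRF1* and *IRF7* are given with and without them. *ADAR* RNA was lower in both *ADAR* sgRNA libraries than in both *GFP* libraries of every line and treatment. Its log2 fold change was −1.29 in NCI-H1650, −1.08 in A549 with vehicle, −0.84 in HCC366, −0.41 in NCI-H196 and −0.60 in A549 with IFN-β. In edgeR the difference did not pass in HCC366 (adjusted p = 0.208, past the threshold in 5 of 12 alternatives) and passed in NCI-H196 (adjusted p = 0.00165, but past the threshold in 4 of 9 alternatives). Epithelial keratin 8 (*KRT8*) averaged 1848 to 2764 CPM in the *GFP* libraries of the other lines and 37.9 CPM in NCI-H196, a line labelled as variant small cell lung cancer, where vimentin (*VIM*) averaged 2232 CPM. The epithelial markers *KRT7*, *KRT18* and *CDH1* were also lowest in NCI-H196. *EPCAM* and *KRT19* did not set it apart, at 0.298 and 0.994 CPM in A549 and 1.39 and 0 CPM in HCC366. The neuroendocrine factors *NEUROD1* and *INSM1* had no read in the *GFP* libraries of any line. The lung lineage factor *NKX2-1* had no read in *GFP* libraries of HCC366, NCI-H1650 or NCI-H196 and averaged 0.0332 CPM in A549. The squamous factor *TP63* averaged 1.39 CPM in HCC366, 1.64 in NCI-H1650, 2.35 in A549 and 37.2 in NCI-H196 (SD 30.3). This last mean includes *GFP* sg2, where 1 read equals 14.7 CPM. The other squamous markers were highest in NCI-H1650 instead, with *KRT6A* at 71.4 CPM against 0 in NCI-H196 and *KRT5* at 2.85 CPM against 0.0558.

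The genes lie on different chromosomes and range from compact to long (coordinates of GRCh37, the same assembly as the authors' hg19). *IRF1* (ENSG00000125347) occupies chr5:131776132-131844411 on the minus strand, and its canonical transcript has 10 exons over 3554 bases. *IRF7* (ENSG00000185507) occupies chr11:612553-615983 on the minus strand, with 11 exons over 1923 bases and the highest GC content of the family at 66.6%. *IRF9* (ENSG00000213928) lies at chr14:24630443-24637252 on the plus strand, with 9 exons over 1626 bases. A read-through gene (ENSG00000259529) on the same strand shares 93.1% of the exonic bases of *IRF9*, so reads of *IRF9* could have been assigned to neither gene and its level is uncertain. *IRF2* lies at chr4:185306856-185395712, *IRF3* at chr19:50162826-50169132, *IRF4* at chr6:391739-411443, *IRF5* at chr7:128577511-128590092 and *IRF8* at chr16:85932722-85956212. Antisense genes overlap 16.3% of the exonic bases of *IRF1* (*IRF1-AS1*) and 14.2% of those of *IRF3* (*BCL2L12*), and the strand setting of the counting was not stated.

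Promoter sequences from RefSeq (GRCh38.p14) are shown for the 2 members whose window of 250 bases before the transcription start held a match to a motif tied to interferon or NF-κB signalling. Windows were at hand for 5 of the 8 genes, *IRF1*, *IRF4*, *IRF5*, *IRF8* and *IRF9*, with 9 windows in all. On both strands, 3 motifs were searched: the STAT site GAS (TTCNNNGAA), the element of ISGF3 and the IRFs, ISRE (GAAANNGAAA), and the NF-κB consensus. They occurred in 6.57%, 3.02% and 9.96% of all 35116 windows of this length. The *IRF1* window, chr5:132490774-132491023 on the minus strand, held 1 GAS match 124 to 116 bases before the start and 1 NF-κB consensus match 50 to 41 bases before it, which do not overlap. The *IRF9* window, chr14:24161015-24161264 on the plus strand, held 1 GAS match 63 to 55 bases before the start. In the sequences, written 5′ to 3′ on the strand of the gene, capitals mark these matches, which describe letters and not bound sites.
IRF1: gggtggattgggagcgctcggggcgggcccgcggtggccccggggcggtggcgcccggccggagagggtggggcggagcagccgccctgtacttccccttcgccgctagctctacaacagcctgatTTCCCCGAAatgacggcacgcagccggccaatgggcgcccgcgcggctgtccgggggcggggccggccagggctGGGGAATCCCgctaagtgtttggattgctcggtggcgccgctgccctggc
IRF9: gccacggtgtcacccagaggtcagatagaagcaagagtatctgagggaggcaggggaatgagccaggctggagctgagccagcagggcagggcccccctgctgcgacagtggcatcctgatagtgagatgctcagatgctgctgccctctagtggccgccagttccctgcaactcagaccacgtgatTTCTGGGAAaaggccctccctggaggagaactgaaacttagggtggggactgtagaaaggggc
Neither window held an ISRE match, and the 7 windows of *IRF4*, *IRF5* and *IRF8* held none of these letters.

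First, the basal level of each member was compared between lines in the *GFP* libraries (A549 with vehicle), to see which IRFs were expressed where *ADAR* was not targeted. These were transduced cells, and for A549 the time after transduction was not stated. Line, culture and library batch cannot be told apart in this comparison. *IRF7* was high in HCC366 and NCI-H196 and low in NCI-H1650 and A549. *IRF1*, *IRF2*, *IRF3*, *IRF7* and *IRF9* were read in every library of every line. To compare genes with each other, CPM over all 20 libraries was divided by transcript length in kilobases (CPM per kb).

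*IRF7*, the inducible driver of interferon-α and interferon-β genes, stood at 19 and 45.5 CPM per kb in the sg1 and sg2 libraries of HCC366 and at 11.6 and 27.2 CPM per kb in those of NCI-H196. The 27.2 CPM per kb of NCI-H196 sg2 stood for 5 reads, while sg1 held 230. In NCI-H1650 *IRF7* averaged 1.91 CPM per kb and in A549 2.72 CPM per kb. HCC366 and NCI-H196 did not overlap NCI-H1650 or A549 but overlapped each other, the latter through NCI-H196 sg2. In edgeR's quasi-likelihood test, log2 *IRF7* was higher in HCC366 than in NCI-H1650 by 4.17 and than in A549 by 3.57. NCI-H1650 was lower than NCI-H196, with a log2 difference of −2.68, and NCI-H196 was higher than A549 by 2.08. The log2 difference between HCC366 and NCI-H196 was 1.49 (adjusted p = 0.00267), but without HCC366 *GFP* sg2 it was 0.60 (adjusted p = 0.388). Between NCI-H1650 and A549 it was −0.60 (adjusted p = 0.34).

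*IRF1*, an activator of antigen-processing and guanylate-binding genes, averaged 14.1 CPM per kb in NCI-H1650, 13.3 in HCC366, 7.03 in NCI-H196 and 4.33 in A549. NCI-H1650 and HCC366 did not differ beyond their spread (log2 difference of HCC366 minus NCI-H1650 −0.06, adjusted p = 0.875). Each of the other steps passed edgeR's test, with log2 differences of 0.75 for HCC366 minus NCI-H196 (adjusted p = 0.0102), 0.81 for NCI-H1650 minus NCI-H196 (adjusted p = 0.00356) and 0.90 for NCI-H196 minus A549 (adjusted p = 0.00102). A549 thus had the lowest level of *IRF1* and both its *GFP* libraries lay below those of every other line. The difference between HCC366 and NCI-H196 was lost without HCC366 *GFP* sg2 (0.55, adjusted p = 0.222) and when low counts were not filtered (adjusted p = 0.112). Calls against NCI-H196 rested on its sg1 library, since *IRF1* had 299 reads there and 2 in sg2.

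*IRF3*, the factor that first induces *IFNB1*, had the highest level per length of the family in NCI-H1650 (46.3 CPM per kb), A549 (39.6 CPM per kb) and, next to *IRF7*, in HCC366 (31.6 CPM per kb) and NCI-H196 (18.5 CPM per kb). In the sg1 libraries *IRF3* lay above *IRF7*, at 35.0 CPM per kb in HCC366 and 23.9 in NCI-H196, and the sg2 library of NCI-H196 held 2 reads of *IRF3* and 5 of *IRF7*. In edgeR, *IRF3* was lower in NCI-H196 than in A549, with a log2 difference of −0.76, and higher in NCI-H1650 than in NCI-H196 by 0.99. HCC366 minus NCI-H1650 was −0.58 (adjusted p = 0.0265), a call lost in DESeq2 and without HCC366 *GFP* sg2 (−0.44, adjusted p = 0.303), and the other pairs did not pass. *IRF2* averaged 15 CPM per kb in NCI-H196, 10.4 in NCI-H1650, 5.78 in A549 and 4.98 in HCC366. Both NCI-H196 libraries lay above those of NCI-H1650, but sg2 of NCI-H196 held 4 reads of *IRF2*. The pair did not pass edgeR's test (adjusted p = 0.586). A549 and HCC366 overlapped and did not pass either. *IRF5*, a factor downstream of Toll-like receptors, averaged 4.35 CPM per kb in A549, 2.64 in NCI-H1650, 3.34 in HCC366 and 0.368 in NCI-H196, where the sg2 library had no read of it. NCI-H196 was lower in *IRF5* than each other line, with log2 differences of −2.57 against A549, 2.17 for HCC366 minus NCI-H196 and 1.86 for NCI-H1650 minus NCI-H196. HCC366 overlapped NCI-H1650 and lay below A549 in both libraries. Neither pair passed edgeR's test (adjusted p = 0.502 and 0.311). NCI-H1650 minus A549 was −0.71 (adjusted p = 0.0341 by edgeR). The last call was lost in 6 alternatives, among them DESeq2 (−0.57, adjusted p = 0.344) and the fit without NCI-H1650 *GFP* sg2 (−0.41, adjusted p = 0.381). *IRF9*, the DNA-binding part of ISGF3, averaged 4.83 CPM per kb in NCI-H196, 0.381 in A549, 1.78 in HCC366 and 0.685 in NCI-H1650. Both NCI-H196 libraries lay above those of HCC366 in *IRF9*, but sg2 of NCI-H196 held 1 read of it. The pair did not pass edgeR's test (adjusted p = 0.458). NCI-H1650 and A549 overlapped and did not pass either. The log2 difference of *IRF9* between HCC366 and NCI-H1650 was 1.72 (adjusted p = 0.0324 by edgeR), yet it was −0.67 without HCC366 *GFP* sg2, since sg1 held 1 read. *IRF8* and *IRF4*, best known from blood cells, were at the edge of detection. *IRF8* had 17 reads over both *GFP* libraries of NCI-H1650, 25 in those of A549 and none in HCC366 or NCI-H196. Taking 3 reads over a group as the limit, it was at least 2.95-fold higher in NCI-H1650 than in HCC366 and at least 5.98-fold higher than in NCI-H196. *IRF4* had 25 reads in all 20 libraries together and passed the filter on low counts in no comparison.

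**Figure D1:**
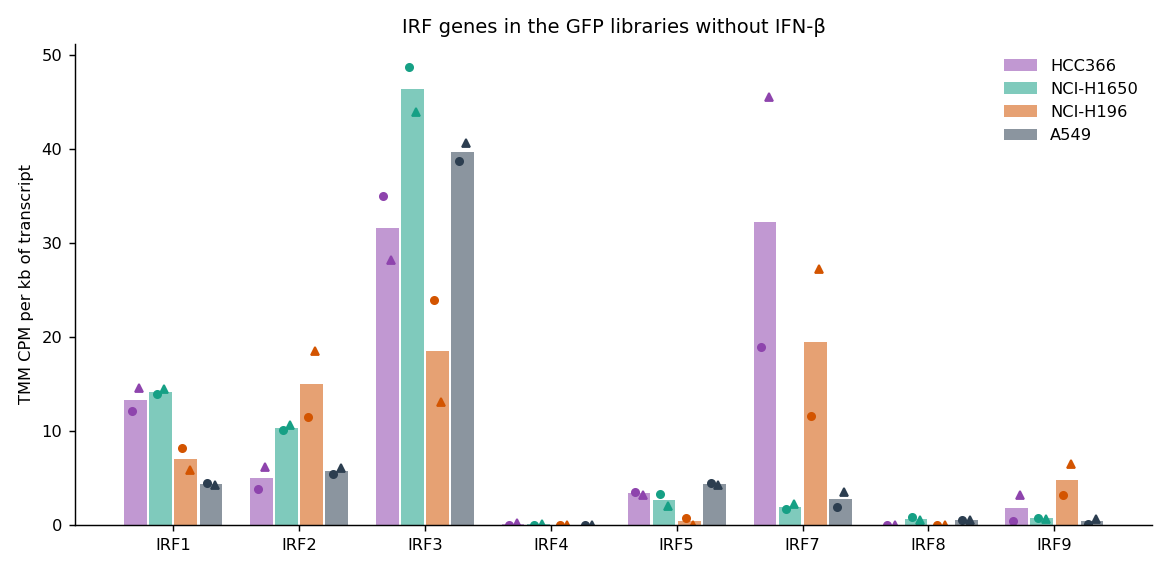
Basal level of the 8 IRF genes in the *GFP* libraries of the 4 lines (A549 with vehicle), in CPM per kb of transcript. Circles are sg1 libraries and triangles sg2 libraries, drawn with the mean of the 2. *IRF7* averaged 32.2 CPM per kb in HCC366 and 19.4 in NCI-H196 but 1.91 in NCI-H1650 and 2.72 in A549. Its value in NCI-H196 sg2 stood for 5 reads.

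These levels differed between the libraries of the lines for several members, and such differences were common among all 19523 genes tested. Between HCC366 and NCI-H1650, 5 of 7 members passed an adjusted p of 0.05, where 41% of all genes did. Against HCC366, 4 of 7 members passed in NCI-H196, where 43.2% of all genes did, and 4 of 7 in A549, where 50.8% did. Between NCI-H1650 and NCI-H196, 6 of 7 members passed, where 46.7% of all genes did. Against A549, 3 of 7 passed in NCI-H1650, where 53.8% of all genes did, and 7 of 7 in NCI-H196, where 57.8% did. Without NCI-H196 *GFP* sg1, which leaves the library of 62679 reads alone, no IRF gene passed in any comparison with NCI-H196.

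Next, *ADAR* KO was compared with *GFP* within each line, in TMM-scaled CPM of that line, to ask which IRFs changed when *ADAR* was targeted. Both *ADAR* libraries lay above both *GFP* libraries for *IRF1* in each of the 3 dependent lines, with log2 fold changes between 0.84 and 1.00. Groups without overlap are described here and elsewhere but are no test. An exact two-sided permutation of 2 against 2 libraries cannot give a p below 0.333. The share of all genes that separate in this way was not taken. Members that missed the threshold separated too, such as *IRF3* and *IRF5* in NCI-H1650 and in A549 with vehicle. For *IRF7* the log2 fold changes ran from −0.13 in NCI-H1650 to 2.22 in HCC366. In bulk RNA, a change in the share of cells that express a gene cannot be told apart from a change in RNA per cell.

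In NCI-H1650, *IRF1* was at 55.1 and 58.5 CPM in the *GFP* libraries and at 99.5 and 104 CPM in the *ADAR* libraries. The groups did not overlap, and *IRF1* rose by 0.84 on the log2 scale (SE 0.12, adjusted p = 5.85e-07, edgeR). It was the 1 member of 7 tested that passed, where 8.6% of all genes did. *IRF7* was at 3.53 and 4.78 CPM with *GFP* and at 4.27 and 3.20 CPM with *ADAR* sgRNAs. Its groups overlapped, with a log2 fold change of −0.13 and a 95% interval from −0.87 to 0.61 (adjusted p = 0.886). *IRF9* was at 1.32 and 1.19 CPM with *GFP* and at 2.23 and 2.78 CPM with *ADAR* sgRNAs, from 5 to 13 reads a library. These groups did not overlap, but the log2 fold change of 0.96 (SE 0.53) missed the threshold (adjusted p = 0.278).

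The other members of NCI-H1650 did not pass. *IRF8* was at 2.43 and 1.43 CPM with *GFP* and at 3.34 and 4.27 CPM with *ADAR* sgRNAs, with a log2 fold change of 0.95 (SE 0.44, adjusted p = 0.185). *IRF3* had a log2 fold change of 0.24 (adjusted p = 0.219) and *IRF5* one of 0.43 (adjusted p = 0.313). *IRF2* was nearly equal at 25.4 and 27.5 CPM with *GFP* against 25.3 and 27.5 CPM with *ADAR* sgRNAs, with a 95% interval of the log2 fold change from −0.33 to 0.33.

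In NCI-H196, *IRF1* was at 33.3 and 29.3 CPM with *GFP* and at 59.9 and 68.1 CPM with *ADAR* sgRNAs, without overlap. It rose by 1.00 on the log2 scale (SE 0.15, adjusted p = 3.09e-09, edgeR). *IRF7* was at 25.6 and 73.3 CPM with *GFP* and at 54.8 and 55.1 CPM with *ADAR* sgRNAs, so that both *ADAR* libraries lay between the *GFP* libraries. The 73.3 CPM of *GFP* sg2 stood for 5 reads, and the fit, which weights libraries by their reads, gave a rise of 1.07 (SE 0.16, adjusted p = 3.65e-09). These 2 of 6 members passed, where 17.8% of all genes did.

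Both calls turned on the *GFP* libraries of NCI-H196. Without *GFP* sg2 the log2 fold changes were 0.99 for *IRF1* (adjusted p = 1.13e-09) and 1.09 for *IRF7* (adjusted p = 2.64e-10). Without *GFP* sg1 they were 1.19 for *IRF1* (adjusted p = 0.707) and −0.41 for *IRF7* (adjusted p = 0.876), and without *ADAR* sg2 *IRF1* was at 0.85 (adjusted p = 0.293). DESeq2 gave no adjusted p for these genes, with unadjusted p = 0.122 for *IRF1* and 0.389 for *IRF7*. With the sgRNA number as a block, neither passed (adjusted p = 0.29 for *IRF1* and 0.28 for *IRF7*). *IRF9* was at 6.02 and 14.7 CPM with *GFP*, the latter a single read, and at 8.12 and 8.91 CPM with *ADAR* sgRNAs, with a log2 fold change of 0.53 (adjusted p = 0.231). *IRF2*, *IRF3* and *IRF5* had log2 fold changes of 0.26, 0.09 and 0.40, none past the threshold, and *IRF8* was not tested, with 2 reads in the line. Summed blood cell markers were at 6.02 and 0 CPM with *GFP* and at 19.3 and 11.4 CPM with *ADAR* sgRNAs, mainly *CD14*, and their part in these results was not tested.

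In HCC366, *IRF7* reached its highest CPM of the series. It was at 39.5 and 93.7 CPM with *GFP* and at 156 and 474 CPM with *ADAR* sgRNAs. The groups did not overlap, and the sgRNAs of each target lay more than 2-fold apart. The log2 fold change was 2.22 (SE 0.58), with an unadjusted p = 0.00399 and an adjusted p = 0.113 in edgeR. *IRF1* was at 46.5 and 55.3 CPM with *GFP* and at 84.0 and 114 CPM with *ADAR* sgRNAs, also without overlap, with a log2 fold change of 0.95 (SE 0.35, unadjusted p = 0.0235, adjusted p = 0.21). No member of 5 tested passed in edgeR, where 1.25% of all genes did, while 2 had an unadjusted p under 0.05 and DESeq2 called 1, *IRF7*.

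The 2 *ADAR* libraries of HCC366 differed in alignment and in GC content. GC content and length accounted for 51.6% of the variance of the deviations of *ADAR* sg2 and for 14.1% to 35.1% in the other libraries, and *IRF7* is the GC-richest member. With offsets for GC content and length, the log2 fold change of *IRF7* was 1.39 (adjusted p = 0.0232) and that of *IRF1* 0.66 (adjusted p = 0.0681). Without *ADAR* sg2 they were 1.14 (adjusted p = 1.88e-05) and 0.71 (adjusted p = 0.0485). Over 12 alternatives *IRF7* lay between 1.14 and 2.99 and passed in 9, and *IRF1* lay between 0.66 and 1.11 and passed in 4. Of 7 blood cell markers, 1 was higher in both *ADAR* libraries, the myeloid gene *ITGAM*, at 7.75 and 6.30 CPM with *GFP* and 33.2 and 54.3 CPM with *ADAR* sgRNAs. Summed over the 7 the level was 10.1 and 14.9 CPM with *GFP* and 39.4 and 55.6 CPM with *ADAR* sgRNAs, while *CD3E* had no read and *PTPRC* and *MS4A1* 1 read each, and their part in the result was not tested.

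The remaining members of HCC366 were lower in coverage. *IRF2* was at 9.30 and 14.9 CPM with *GFP* and at 6.12 and 7.11 CPM with *ADAR* sgRNAs, lower in both *ADAR* libraries, with a log2 fold change of −0.91 (adjusted p = 0.341). *IRF3* was at 60.4 and 48.1 CPM against 48.1 and 95.1 CPM, and *IRF5* at 10.8 and 10.0 CPM against 9.62 and 25.9 CPM, where in both cases only *ADAR* sg2 was high and the groups overlapped. *IRF9* had 1 and 19 reads with *GFP* and 1 and 9 reads with *ADAR* sgRNAs and was not tested, and *IRF8* had no read in HCC366.

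**Figure D2:**
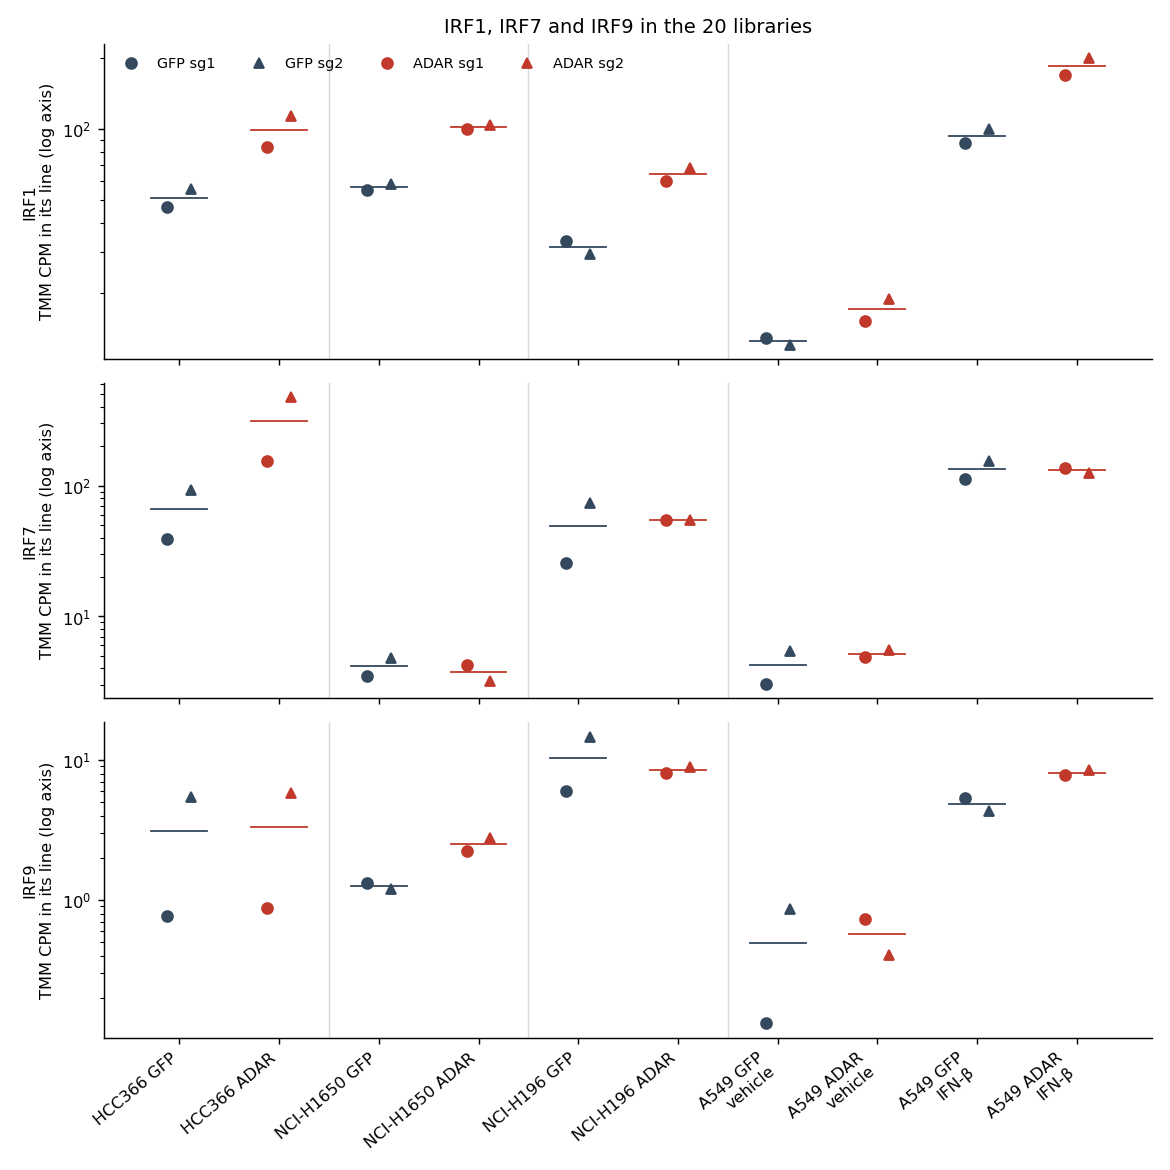
Within-line CPM (log scale) of *IRF1*, *IRF7* and *IRF9* in each of the 20 libraries. Circles are sg1 and triangles sg2 libraries, dark symbols *GFP* and red symbols *ADAR* sgRNAs, and lines the mean of the 2. *IRF1* was higher with *ADAR* sgRNAs in every pair of groups, from 46.5 and 55.3 to 84.0 and 114 CPM in HCC366, whereas *IRF7* in NCI-H1650 stayed between 3.20 and 4.78 CPM.

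Across the 12 libraries of the 3 lines, with the line as a covariate, 2 of 7 members passed, where 5.3% of all genes did. *IRF1* rose by 0.88 on the log2 scale (SE 0.14, adjusted p = 0.000943, edgeR), and it passed in all 17 alternatives, between 0.82 and 0.93. *IRF7* rose by 1.28 (SE 0.36, adjusted p = 0.0438) and passed in 8 of 17 alternatives. Its call was lost in DESeq2 (0.96, adjusted p = 0.133), with the sgRNA number as a block (1.15, adjusted p = 0.0592) and without any 1 of 7 libraries. These were HCC366 *GFP* sg1 (0.90, adjusted p = 0.16), HCC366 *GFP* sg2, all 4 libraries of NCI-H196 and NCI-H1650 *ADAR* sg1, with adjusted p-values for the other 6 from 0.0514 to 0.0947. Without both HCC366 *ADAR* sg2 and NCI-H196 *GFP* sg2, a choice made after seeing the data, *IRF1* rose by 0.82 (adjusted p = 1.52e-06) and *IRF7* by 0.88 (adjusted p = 0.00186). *IRF5* (0.53), *IRF9* (0.44), *IRF3* (0.24), *IRF2* (−0.10) and *IRF8* (1.03) did not pass.

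The differences between lines in the *ADAR* KO effect were tested in a fit of all 20 libraries, and no IRF gene passed. For *IRF7*, the effect in HCC366 exceeded that in NCI-H1650 by 2.23 on the log2 scale (unadjusted p = 0.00276, adjusted p = 0.078, edgeR), where 2.21% of all genes passed. Against NCI-H196, HCC366 exceeded it by 1.11 (adjusted p = 0.274), where 2.41% of all genes passed. NCI-H1650 minus NCI-H196 gave −1.12 (adjusted p = 1), where 0.00512% of all genes passed. *IRF1* effects of these lines differed by −0.10 to 0.04, with adjusted p-values of 1. Those of *IRF2* differed by −1.32 to −0.30 and those of *IRF9* by −1.15 to 0.50, none past the threshold.

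In A549 cells with vehicle, the *ADAR* KO contrast moved few genes of the transcriptome. *IRF1* was at 12.9 and 12.1 CPM with *GFP* and at 15.2 and 19 CPM with *ADAR* sgRNAs. Both *ADAR* libraries were higher, with a log2 fold change of 0.47 (SE 0.16, unadjusted p = 0.00631, adjusted p = 0.87, edgeR). No member of 7 passed, where 0.123% of all genes did, and *IRF1* alone had an unadjusted p under 0.05. *IRF7* was at 3.03 and 5.44 CPM with *GFP* and at 4.88 and 5.49 CPM with *ADAR* sgRNAs, which overlapped, with a 95% interval of the log2 fold change from −0.33 to 0.72. The mean *IRF1* effect of the dependent lines exceeded that of A549 with vehicle by 0.44 (SE 0.23, adjusted p = 0.402), and that of *IRF7* by 0.79 (adjusted p = 0.501), where 0.953% of all genes passed. A difference between dependent lines and A549 was therefore not shown for either gene.

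IFN-β in A549 asked which members respond to the cytokine itself. With *GFP* sgRNAs, *IRF7*, *IRF9*, *IRF1* and *IRF2* rose and *IRF3*, *IRF5* and *IRF8* did not pass, so 4 of 7 members passed where 5.7% of all genes did. *IRF7* went from 3.03 and 5.44 CPM with vehicle to 113 and 155 CPM with IFN-β, *IRF1* from 12.9 and 12.1 CPM to 87.3 and 99.3 CPM, and *IRF2* from 10.2 and 11.0 CPM to 37.8 and 31.3 CPM. None of these groups overlapped. The rise of *IRF7* was 4.89 on the log2 scale (SE 0.19, adjusted p = 1.45e-19, edgeR), that of *IRF1* 2.91 (SE 0.14, adjusted p = 8.87e-17) and that of *IRF2* 1.69 (SE 0.18, adjusted p = 2.57e-08). *IRF9* went from 0.132 and 0.863 CPM to 5.35 and 4.35 CPM, from 1 and 13 reads to 57 and 70 reads, and rose by 2.98 (SE 0.45, adjusted p = 1.34e-05). Its read-through neighbour went from 1 and 9 reads to 23 and 65 reads.

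*IRF3* was at 50.9 and 51.8 CPM with vehicle and at 54.0 and 67.3 CPM with IFN-β, with a log2 fold change of 0.24 and a 95% interval from −0.01 to 0.50. *IRF5* moved from 10.6 and 9.96 CPM to 11.5 and 11.4 CPM (log2 fold change 0.17). *IRF8* moved from 1.06 and 1.13 CPM to 1.41 and 2.17 CPM (log2 fold change 0.73, SE 0.49, adjusted p = 0.541). *IRF4* had no read with vehicle and 5 reads with IFN-β, at least 1.38-fold higher against the limit of 3 reads. Per length, *IRF7* averaged 84.7 CPM per kb after IFN-β in *GFP* cells against 46.1 CPM per kb for *IRF3*, while with vehicle the means were 2.72 and 39.6.

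With *ADAR* sgRNAs the same members passed after IFN-β, 4 of 7, where 24.5% of all genes did. *IRF1* went from 15.2 and 19 CPM to 169 and 199 CPM and rose by 3.42 on the log2 scale (SE 0.14, adjusted p = 7.34e-19, edgeR). *IRF7* went from 4.88 and 5.49 CPM to 137 and 126 CPM and rose by 4.65 (SE 0.19, adjusted p = 6.68e-19). *IRF9* went from 0.732 and 0.407 CPM to 7.78 and 8.49 CPM (3.85, adjusted p = 9.15e-08) and *IRF2* from 9.63 and 14.4 CPM to 32.9 and 31.3 CPM (1.40, adjusted p = 5.74e-07). In each case the treated libraries lay above the vehicle libraries, and the 4 calls of both sgRNA targets held in all 14 alternatives. *IRF8* had a log2 fold change of 1.20 (SE 0.50, adjusted p = 0.08), and *IRF3* and *IRF5* ones of 0.09 and −0.01.

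Within IFN-β-treated A549 cells, *IRF1* rose with *ADAR* KO and *IRF7* did not pass. *IRF1* was at 87.3 and 99.3 CPM with *GFP* and at 169 and 199 CPM with *ADAR* sgRNAs, without overlap. It rose by 0.98 on the log2 scale (SE 0.12, adjusted p = 2.62e-07, edgeR), the 1 member of 7 that passed, where 17% of all genes did. *IRF7* was at 113 and 155 CPM with *GFP* and at 137 and 126 CPM with *ADAR* sgRNAs, which lay between them. Its log2 fold change was −0.04, with a 95% interval from −0.31 to 0.23 that leaves out the size seen for *IRF1*. *IRF9* was at 5.35 and 4.35 CPM with *GFP* and at 7.78 and 8.49 CPM with *ADAR* sgRNAs, higher in both, with a log2 fold change of 0.76 (SE 0.31, adjusted p = 0.0919). *IRF2*, *IRF3*, *IRF5* and *IRF8* had log2 fold changes of −0.10, −0.01, 0.11 and 0.34. *ITGAM* was at 4.50 and 5.53 CPM with *GFP* and at 8.62 and 11.2 CPM with *ADAR* sgRNAs, while *CD3E*, *MS4A1* and *PTPRC* had no read in these 4 libraries, and the part of *ITGAM* in the result was not tested.

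The interaction of *ADAR* KO and IFN-β tested whether the KO effect was larger with the cytokine. No member of 7 passed, where 5.05% of all genes did. For *IRF1* the interaction was 0.51 on the log2 scale (SE 0.20, unadjusted p = 0.0151, adjusted p = 0.144, edgeR), and adjusted p-values over 14 alternatives ran from 0.0712 to 0.562. *IRF7* had an interaction of −0.23 and *IRF9* one of 0.87, with adjusted p-values of 0.731 and 0.584. The others were −0.29 for *IRF2*, −0.15 for *IRF3*, −0.18 for *IRF5* and 0.48 for *IRF8*. So a KO effect on *IRF1* passed with IFN-β and missed the threshold with vehicle, without a shown difference between them.

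**Figure D3:**
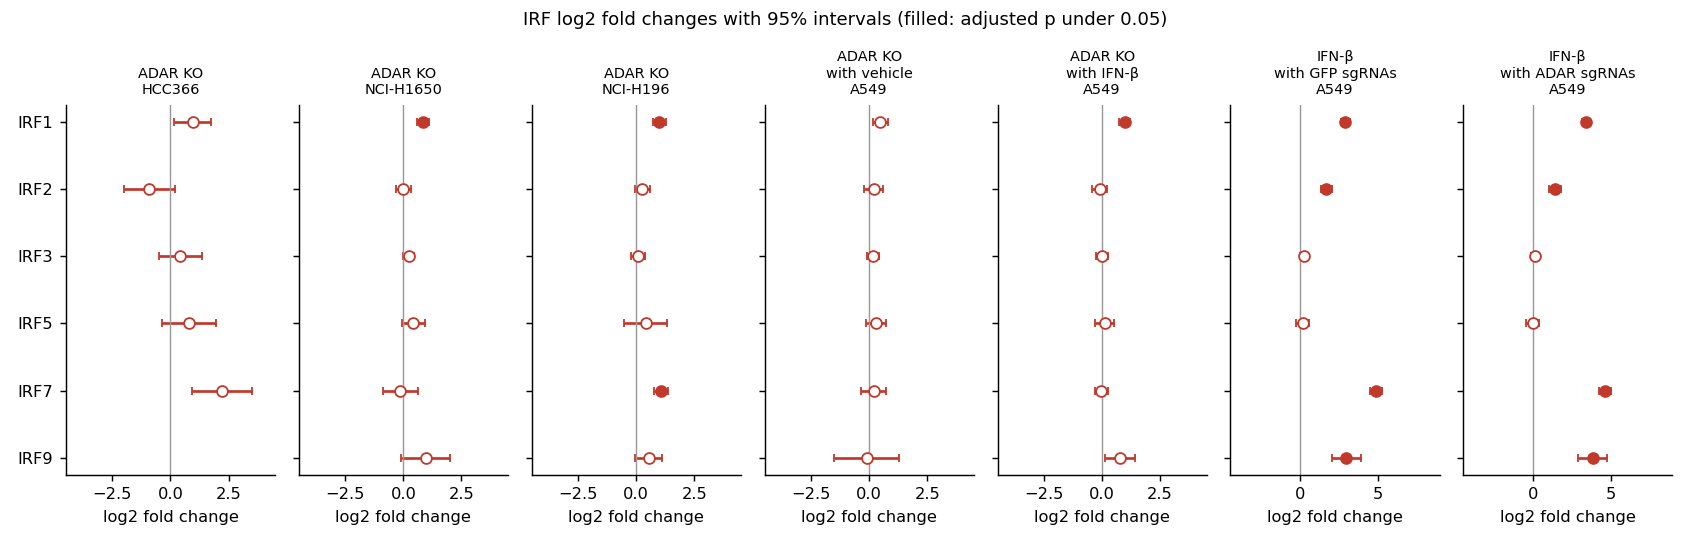
Log2 fold changes of the IRF genes in the *ADAR* KO comparisons and in both IFN-β comparisons, with 95% intervals, on a linear axis. *IRF1* lay between 0.47 and 1.00 in the *ADAR* KO comparisons, while *IRF7* ran from −0.13 to 2.22 and rose by 4.89 and 4.65 with IFN-β.

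To contrast *IRF7* and *IRF9* with *IRF1* inside a library, the log2 ratio of their read counts was taken, which needs no scaling between libraries. In A549, log2 *IRF7* to *IRF1* was −2.07 and −1.15 with *GFP* and vehicle, −1.63 and −1.78 with *ADAR* and vehicle, 0.37 and 0.65 with *GFP* and IFN-β and −0.30 and −0.66 with *ADAR* and IFN-β. All 4 IFN-β libraries lay above all 4 vehicle libraries, and the IFN-β libraries with *ADAR* sgRNAs lay below those with *GFP*. The mean rise with IFN-β was 1.67, 2.12 with *GFP* and 1.23 with *ADAR* sgRNAs, with p = 0.0556 in an exact two-sided permutation test within sgRNA targets, the smallest p it allows with 36 assignments, and an adjusted p of 0.333 over the 6 ratio comparisons made. The *ADAR* KO difference in A549 was −0.10 with vehicle and −0.99 with IFN-β (mean −0.55, exact permutation p = 0.167, adjusted 0.426).

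In the dependent lines, log2 *IRF7* to *IRF1* went in different directions. In NCI-H1650 it was −3.92 and −3.58 with *GFP* and −4.51 and −4.98 with *ADAR* sgRNAs, lower in both. In HCC366 it was −0.23 and 0.76 with *GFP* and 0.89 and 2.06 with *ADAR* sgRNAs, higher in both. In NCI-H196 it was −0.38 and 1.14 with *GFP*, the latter from 7 reads in all, and −0.13 and −0.31 with *ADAR* sgRNAs. The mean difference over the 3 lines was −0.13 (1.21 in HCC366, −0.60 in NCI-H196, −0.99 in NCI-H1650), with p = 0.824 in an exact two-sided permutation test within lines, where the smallest p is 0.00926, and adjusted p = 0.944. For *IRF9* to *IRF1*, the mean differences were −0.66 for *ADAR* KO in the dependent lines (exact permutation p = 0.213, adjusted 0.426), −0.08 for *ADAR* KO in A549 (exact permutation p = 0.944, adjusted 0.944) and 0.49 for IFN-β (exact permutation p = 0.556, adjusted 0.833). The 4 comparisons in A549 could not pass 0.05, since the smallest p they allow is 0.0556, and so say nothing either way, while both comparisons in the dependent lines missed it.

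**Figure D4:**
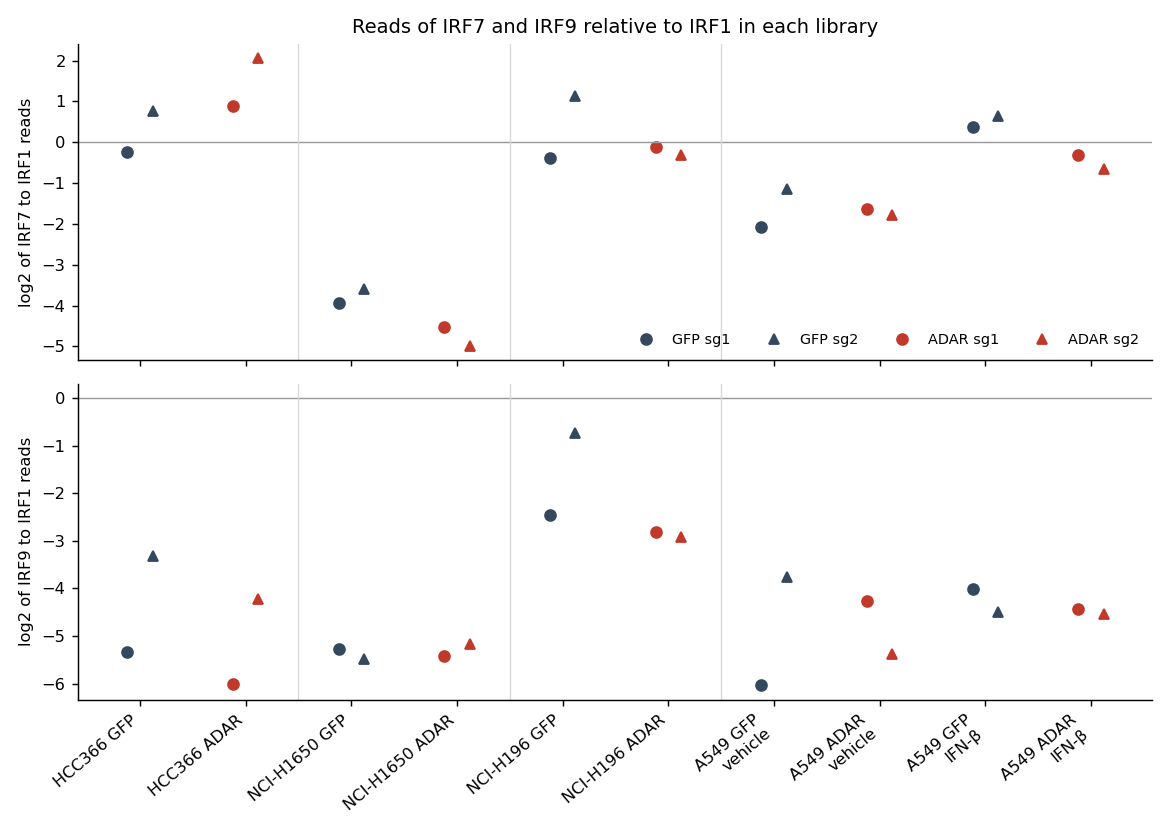
Log2 ratio of *IRF7* reads to *IRF1* reads and of *IRF9* reads to *IRF1* reads in each of the 20 libraries (0.5 added to each count), by condition. Circles are sg1 and triangles sg2 libraries, and dark symbols *GFP* and red symbols *ADAR* sgRNAs. *IRF7* to *IRF1* rose from between −2.07 and −1.15 to between −0.66 and 0.65 with IFN-β in A549 and was lowest in NCI-H1650.

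The genes around the IRFs were counted from lists by role, in the order of the pathway. Sensors, adaptors and kinases upstream of IRF3, IRF5 and IRF7 formed a list of 12. With *ADAR* KO, 4 of 12 rose in NCI-H1650, with a median log2 fold change over the list of 0.23, and 6 of 12 in A549 with IFN-β, led in both by *IKBKE*, a kinase that phosphorylates IRF3 and IRF7 (1.04 and 1.27), and *TICAM1*, the adaptor TRIF (0.72 and 0.76). In NCI-H196, 6 of 11 rose and 1 fell, with *IFIH1*, which encodes MDA5, at 1.71 and *IKBKE* at 1.12. None of 11 passed in HCC366 and none of 12 in A549 with vehicle. Over the alternatives the number that rose lay between 1 and 4 in NCI-H1650, 0 and 6 in NCI-H196, 1 and 6 in A549 with IFN-β and 0 and 4 in HCC366. For NCI-H196 it was 6 without *GFP* sg2, 0 without *GFP* sg1, 2 without *ADAR* sg1, 3 without *ADAR* sg2 and 2 with the sgRNA number as a block, and for NCI-H1650 it was 1 with DESeq2. IFN-β in *GFP* cells raised 6 and lowered 1, with *IFIH1* at 7.64 and *DDX58*, which encodes RIG-I, at 5.10. Over all genes, 6.18% rose and 2.42% fell in NCI-H1650, 10.3% and 7.5% in NCI-H196, 10.8% and 6.19% in A549 *ADAR* KO with IFN-β, 1.2% and 0.0449% in HCC366, 0.0324% and 0.0906% in A549 *ADAR* KO with vehicle, and 4.39% and 1.31% with IFN-β in *GFP* cells. The median log2 fold change of all genes lay between −0.01 and 0.01 in these 6 comparisons.

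The NF-κB subunits and feedback genes, a list of 7 that holds inducers of *IRF1*, counted 5 higher of 7 in NCI-H1650 (median 0.81), 6 of 7 in NCI-H196 (median 1.22), 7 of 7 in A549 with IFN-β (median 1.25), 1 of 7 in HCC366 (median 1.03) and 0 of 7 in A549 with vehicle (median 0.09). Over the alternatives these counts ran from 5 to 6 in NCI-H1650, 2 to 6 in NCI-H196, where 2 were left without *GFP* sg1, 6 to 7 in A549 with IFN-β and 0 to 6 in HCC366, where 4 passed without *ADAR* sg2. *TNFAIP3*, the NF-κB feedback gene A20, rose on the log2 scale by 3.07 in A549 with IFN-β, 1.99 in HCC366, 1.75 in NCI-H196 and 1.73 in NCI-H1650. *RELB*, a subunit of the alternative pathway, rose by 1.04 in NCI-H1650 and 1.36 in A549 with IFN-β. IFN-β alone raised 4 of 7 in *GFP* cells, with *TNFAIP3* at 0.90. The interaction of *ADAR* KO and IFN-β was positive and passed for 6 of 7, with *TNFAIP3* at 2.77 and *RELB* at 1.27, where 4.07% of all genes passed in that direction and 0.977% in the other.

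Interferon and chemokine genes, the targets of IRF3 and IRF7, formed a list of 6, of which only those past the filter on low counts were tested. With *ADAR* KO, 6 of 6 tested rose in NCI-H1650, 3 of 3 in NCI-H196 and 5 of 5 in A549 with IFN-β. In HCC366 0 of 1 and in A549 with vehicle 0 of 5 did. The filter keeps a gene that is read in a single condition, so some were tested only because they were high with *ADAR* sgRNAs. The shares of tested genes are therefore partly set by the filter and are no support by themselves. Without NCI-H196 *GFP* sg1 none passed in that line, and 1 was left without its *ADAR* sg2 or with the block. *IFNB1*, the gene of IFN-β itself, rose by 2.85 in NCI-H1650, and *IFNL1*, an interferon-λ gene, by 2.81 in NCI-H196. In A549 with IFN-β, *IFNL1* had 112 reads with *ADAR* sgRNAs and none with *GFP*, at least 33.8-fold higher, and *IFNB1* had 79 reads and none, at least 23.9-fold higher. Here *IRF7* had a log2 fold change of −0.04 and *IRF3* one of −0.01. *IFNL2* and *IFNL3* are near-identical copies whose reads could have been split between them. IFN-β alone passed for 1 of 5 in *GFP* cells, the chemokine gene *CCL5* at 3.93.

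Interferon receptors, their kinases and the ISGF3 partners counted 2 of 9 higher with *ADAR* KO in each of NCI-H1650 (*TYK2* 0.33 and *JAK1* 0.31), NCI-H196 (among them *STAT2* 0.56) and A549 with IFN-β (*IFNGR2* 1.06 and *STAT2* 0.31), and 0 of 9 in HCC366 and A549 with vehicle. The alternatives gave 0 to 1 for NCI-H1650 and 0 to 3 for NCI-H196, with 0 in the latter without *GFP* sg1, *ADAR* sg1 or *ADAR* sg2. IFN-β in *GFP* cells raised 2 of 9, among them *STAT2*, a partner of IRF9, by 3.51. ISGF3 targets, with *IFIT*, *OAS* and *MX* genes among the 12, all passed upward with IFN-β in *GFP* cells, at a median log2 fold change of 8.61, or 8.37 with genes unread in vehicle set at their lower bound. With *ADAR* KO, they rose in 4 of 12 in NCI-H1650 (median 0.26), led by *RSAD2* at 0.77 and *USP18* at 0.70, in 12 of 12 in NCI-H196 (median 1.05), led by *OAS1* at 1.50 and *OAS2* at 1.33, and in 1 of 12, *RSAD2* at 0.35, in A549 with IFN-β (median −0.10). None of 12 passed in HCC366 (median 0.65) or A549 with vehicle. The 12 of NCI-H196 were also 12 without *GFP* sg2, but 4 with the sgRNA number as a block, 0 without *GFP* sg1, 1 without *ADAR* sg1, 2 without *ADAR* sg2 and 0 in the fit of all 20 libraries. In NCI-H1650 the alternatives gave 0 to 6, in HCC366 0 to 7, with 4 without *ADAR* sg2, and in A549 with IFN-β 0 to 2.

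IRF1 targets formed a list of 12, most of them genes of antigen processing and guanylate binding, with *SOCS1*, *CASP1* and *IL15* added. The list counted 2 higher in NCI-H1650 (*GBP2* 1.18 and *GBP1* 0.36) and 7 in NCI-H196, led by *SOCS1*, an inhibitor of JAK kinases, at 1.41 and *GBP2* at 0.96. In A549 with IFN-β, where *IRF1* rose by 0.98, 1 rose (*IL15*, an interleukin gene, by 0.65) and 1 fell (*PSMB9*, an immunoproteasome subunit, which fell by 0.40). The median of the list there was −0.08. IFN-β in *GFP* cells raised 11 of 12, led by *CASP1*, which encodes an inflammatory protease, at 6.49 and *GBP1* at 5.35. None of 10 passed in HCC366 and none of 12 in A549 with vehicle. The 7 of NCI-H196 were 7 without *GFP* sg2 and 0 with the block or without *GFP* sg1 or *ADAR* sg2, 1 without *ADAR* sg1, and over the alternatives 1 to 2 rose in NCI-H1650, 0 to 4 in HCC366 and 0 to 1 in A549 with IFN-β. Of the 3 corepressors that bind IRF2, *IRF2BP2* rose by 0.69 with *ADAR* KO in NCI-H1650, *IRF2BP1* by 0.56 and *IRF2BPL* by 0.30 in NCI-H196 (neither with the block or without *GFP* sg1, *ADAR* sg1 or *ADAR* sg2), and none passed in HCC366 or in either A549 comparison.

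Finally, the genes whose level followed each inducible member most closely were found over all 20 libraries, as Pearson r of log2 CPM centred on the mean of each cell line. The points share cell lines and treatments, so r is a description. For *IRF1*, *IRF7* and *IRF9* the largest log2 fold changes within a line were those with IFN-β in A549. The share of the centred spread that came from each line was not computed. For *IRF1*, the closest of 19522 genes were *GBP5* (0.979), *CCL5* (0.975), *DHX58* (0.969), *DDX60* (0.964) and *CMTR1* (0.964), of which *GBP5* and *CCL5* remained among the closest 5 without NCI-H196 *GFP* sg2. For *IRF7* they were *HLA-E* (0.990), *HELZ2* (0.988), *PLEKHA4* (0.985), *TAP1* (0.984) and *ISG15* (0.980), and the same 5 led without NCI-H196 *GFP* sg2. For *IRF9* they were *SHFL* (0.928), *USP18* (0.927), *THEMIS2* (0.921), *RUBCN* (0.917) and *TRIM21* (0.910), of which 4 remained without that library. Among the members, r was 0.91 between *IRF1* and *IRF7*, 0.89 between *IRF3* and *IRF5* and −0.20 between *IRF2* and *IRF5*. Both *IRF3* and *IRF5* were highest in *ADAR* sg2 among the HCC366 libraries, and NCI-H196 *GFP* sg2 held 2 and 0 reads of them. The r values between members were not taken without these libraries.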

How the data were processed

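RNA-seq was available for 20 libraries in 10 conditions. Per the labels and the study's methods, the authors depleted ribosomal RNA, built directional libraries, aligned paired reads to hg19 with STAR and used HTSeq to count reads over genes. Their deposited files give raw, unscaled counts of 58233 genes, and 5 summary lines per file were left out. The annotation release and the strand and overlap settings were not given in the sources used here. Reads on genes ranged from 62679 to 19520189, and no 2 files held identical values. The analysis used edgeR 4.0.16 in R 4.3.3, with TMM scaling, filterByExpr by condition, quasi-likelihood F-tests and Benjamini-Hochberg adjustment over all genes, with a threshold of 0.05. Separate fits were made for each dependent line and for the 8 A549 libraries, 12 libraries were fitted with line as covariate, and all 20 served tests between lines. SE and 95% intervals came from the F statistic. Ratios of counts (0.5 added) were tested by exact permutation within lines or treatments in Python 3.11.15 with SciPy 1.17.1. Alternatives were DESeq2 1.42.0, its size factors, no filter, offsets for GC content and length (HCC366), 1 fit of all 20 libraries, an sgRNA-number block and leaving out each library. Gene models came from GENCODE 44 mapped to GRCh37, promoters from RefSeq. The scripts were tested on simulated data.

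The naming rule took the 8 members and *ADAR*, in each list the 2 genes past the threshold with the largest log2 fold change, and the 5 genes most correlated with *IRF1*, *IRF7* and *IRF9*. The members and lists were chosen with earlier results of these data known. Some genes of the lists and markers are not reported here by name. Replicate numbers name different sgRNAs in *GFP* and *ADAR* cells and so do not pair *GFP* with *ADAR* libraries. Deviations of same-numbered libraries correlated at −0.253 in HCC366 and between −0.0784 and 0.0368 in the other within-line fits. Within a target, the vehicle and IFN-β libraries of A549 share an sgRNA and are paired. The main A549 fit and the main ratio test did not use this pairing, with deviations of such pairs correlated at −0.0592 (*GFP*) and −0.00477 (*ADAR*). A fit with the sgRNA as a block was among the alternatives for IFN-β.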

Additional observations from a re-analysis of the deposited data

Results flagged for a closer look

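The mean CPM of *IRF8* lay in opposite directions with *ADAR* KO in NCI-H1650, with a mean of 3.81 CPM with *ADAR* and 1.93 CPM with *GFP* sgRNAs, and in A549 with vehicle, with 0.996 and 1.09 CPM, and every library followed its group. Neither passed in edgeR, with log2 fold changes of 0.95 (adjusted p = 0.185) and −0.14 (95% interval −1.30 to 1.02, adjusted p = 0.998). The difference was not tested for this pair of lines alone. The reads of the read-through gene that overlaps *IRF9* were 23 and 65 with *GFP* and 37 and 67 with *ADAR* sgRNAs after IFN-β in A549, against 1, 9, 5 and 3 with vehicle.

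The *ADAR* KO effect differed between IFN-β and vehicle in A549 (interaction past the threshold in edgeR) for genes of 5 lists, where 5.05% of all genes passed. The effect was larger under IFN-β for 6 of the 7 NF-κB genes and for 2 of the 12 sensors, adaptors and kinases (*IKBKE* by 1.39 and *TRAF3* by 0.50 on the log2 scale). It was also larger for 1 of the 9 genes of receptors, their kinases and ISGF3 partners (*IFNGR2* by 0.93). A smaller effect was called for 2 of the 12 ISGF3 targets (*ISG15* by −1.03 and *OAS1* by −0.65) and 1 of the 12 IRF1 targets (*PSMB9* by −0.68). The mean effect in the dependent lines exceeded that in A549 with vehicle for 4 of the 7 NF-κB genes, led by *TNFAIP3* (1.52) and *RELB* (1.20). It did so for 1 of the 12 genes upstream of the IRFs, *IKBKE* (1.04), where 0.953% of all genes passed in either direction. No IRF gene passed either test.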

How the results depend on the processing

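The rise of *IRF1* held in every alternative run in NCI-H1650, across the dependent lines and in A549 with IFN-β, as did the 4 IFN-β calls. In HCC366, where no IRF gene passed, 1 passed with DESeq2, with no filter, with the replicate block by sgRNA number, with a crossed replicate block (added after seeing the data) or with offsets for GC content and length, 2 passed with these offsets and the block or with all 20 libraries in one fit, and leaving out each library gave 0 to 4. In NCI-H196, the 2 calls became 0 with the block and 1 with all 20 libraries, and leaving out each library gave 0 to 2, with *IRF7* at −0.41 to 1.09. Across the dependent lines 1 passed with the block, and 1 to 2 on leaving out each library. DESeq2 gave no adjusted p for all members in NCI-H196 and for some across lines, so no count was taken there. For differences of KO effects, 1 gene, *IRF7*, passed for HCC366 minus NCI-H1650 with no filter or with the block, and for HCC366 minus NCI-H196 with the block, and leaving out each library gave 0 to 1 for both and for the dependent lines minus A549. Basal counts on leaving out each library ran from 2 to 5 for HCC366 minus NCI-H1650 (3 with DESeq2), 0 to 4 for HCC366 minus NCI-H196, 2 to 6 for HCC366 minus A549, 2 to 4 for NCI-H1650 minus A549, 0 to 6 for NCI-H1650 minus NCI-H196 and 0 to 7 for NCI-H196 minus A549. Basal *IRF9* ran from −0.67 to 2.14 for HCC366 minus NCI-H1650 and from −0.10 to 4.37 for HCC366 minus A549. Ratio differences ran from −0.38 to 0.13 (*IRF7* to *IRF1*, KO in dependent lines), −0.083 to 1.06 (*IRF9* to *IRF1*, IFN-β) and −0.65 to 0.49 (*IRF9* to *IRF1*, KO in A549). The block changed no call of an IRF gene other than those named here, and the cause of these shifts was not tested. With 2 libraries a condition, a lone library is assumed to vary like the others. The depth of NCI-H196 *GFP* sg2 and of HCC366 limits *IRF4*, *IRF8* and *IRF9*.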
